A study of Mus musculus with 4 samples.

Results

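The excision and mismatch repair genes are a set of 34 mouse genes named for their known roles in base excision, nucleotide excision and mismatch repair, taken by symbol from the 53700 genes of the table. Expression was high enough for a test in 33 of them. The exception was Neil1. They were followed in primary spermatocytes of 8-week-old C57BL/6 mice, sorted by Hoechst staining of testis cells. The control group was wild type (replicates 2 and 3). The circSRY KO group (replicates 1 and 2) carried a germline deletion of the splice acceptor that lies upstream of the Sry coding region and is needed to form circSRY, a circular RNA of the testis. Each group had 2 mice, and the labels name no treatment. The deletion was present in every cell of the animal, so the sorted cells had developed in a testis that lacked circSRY throughout. RNA was read by RNA-seq from libraries that do not mark strand. The comparison asked how transcript levels in spermatocytes differ when circSRY is lost.

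Damaged or mispaired bases are removed by several pathways that share their last steps. In base excision repair a DNA glycosylase cuts out a single altered base, the AP endonuclease opens the strand, a polymerase fills the gap and a ligase seals it. PARP enzymes and the scaffold XRCC1 act at the resulting single-strand breaks. Nucleotide excision repair recognises a distorted helix or a stalled RNA polymerase, unwinds it with the helicases of TFIIH and cuts out a short oligonucleotide. Mismatch repair corrects replication errors, and in germ cells some of its proteins also act in meiotic recombination.

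Depth was similar, from 8045148 to 8839461 expected counts per library. Sry was listed at 0 expected counts in all 4 libraries, so it could not check the genotype. The circular RNA was not measured by these gene counts. The markers of the labelled cell type were present in both groups. The summed level of 12 pachytene and diplotene markers was 12947 and 14279 TPM (RSEM's level per transcript length, scaled to the same sum in each library) in control against 10315 and 11100 TPM in circSRY KO. Other cell type markers differed between the groups. The summed level of 12 leptotene and zygotene markers was 1637 and 1258 TPM in control against 616 and 483.5 TPM in circSRY KO, and 9 of the 12 were called lower. All 12 leukocyte markers were called higher, with summed levels of 29.6 and 25 TPM in control against 520.9 and 379.5 TPM in circSRY KO. Of 11 elongating spermatid markers 10 were called higher, with summed levels of 9714 and 9573 TPM in control against 53775 and 44590 TPM in circSRY KO. Round spermatid (11 of 12), Sertoli (9 of 10) and stromal markers (10 of 10) were also called higher, and all 8 Leydig markers were called lower. No listed marker was at 0 in all 4 libraries. Immediate early genes were called higher in 10 of 11 cases, with summed levels of 169.1 and 125.9 TPM in control against 439.9 and 283.8 TPM in circSRY KO. The part of these cell type differences in the repair genes' levels was not tested. In such bulk samples, fewer cells of a type and less RNA per cell cannot be told apart.

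Loss of circSRY was accompanied by lower levels of many repair genes and by a significant increase of none. A gene was called when its log2 fold change was at least 1 in size with a false discovery rate under 0.05 by the quasi-likelihood test of edgeR, Benjamini-Hochberg adjusted over 17766 genes (called edgeR adjusted p from here). By this rule 10 of the 33 tested repair genes fell (30.3%), against 15.0% of all genes tested. None was called higher, against 20.0% of all genes tested. At an unadjusted p under 0.05, 14 of the 33 repair genes were lower and 0 were higher, against 21.8% and 26.0% of all genes tested. Counted in both directions together, repair genes passed this level no more often than all genes, of which 8489 of 17766 did. DESeq2, limma-voom, the edgeR likelihood ratio test and limma on TPM also called 0 higher. The median log2 fold change was -0.48 over the 33 genes and 0.07 over all genes tested, with 23 negative and 10 positive values. In TPM, both circSRY KO libraries lay below both control libraries for 19 genes, against 38.8% of all genes tested. The reverse held for 2 genes, Mbd4 and Polb, against 29.5% of all genes tested. In counts normalized for library size, the reverse also held for Mutyh, Neil2, Rad23b, Ercc4 and Ercc5. On that scale Lig3 and Parp2 joined the genes below both control libraries, while Xpa and Ercc3 left them. The shares of all genes on that scale were not worked out. The summed level of the repair genes was 1827 and 1718 TPM in control against 1175 and 1349 TPM in circSRY KO. TPM gave lower values in circSRY KO than counts did for genes in general. The median difference, log2 ratio of mean TPM minus count log2 fold change, was -0.23 over the repair genes and -0.23 over all genes tested. With upper-quartile scaling 4 of the 33 were called lower, a share close to the 11% of all genes tested. Without control replicate 2, and without control replicate 3, fewer genes were called lower. The share called among the repair genes was then close to that of all genes. The median log2 fold change of the repair genes was then -0.44 and -0.66, against 0.1 over all genes in each case. An exact permutation test of 2 against 2 libraries for a single gene cannot go below 0.33, so calls rest on the spread shared across genes.

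**Figure D1:**
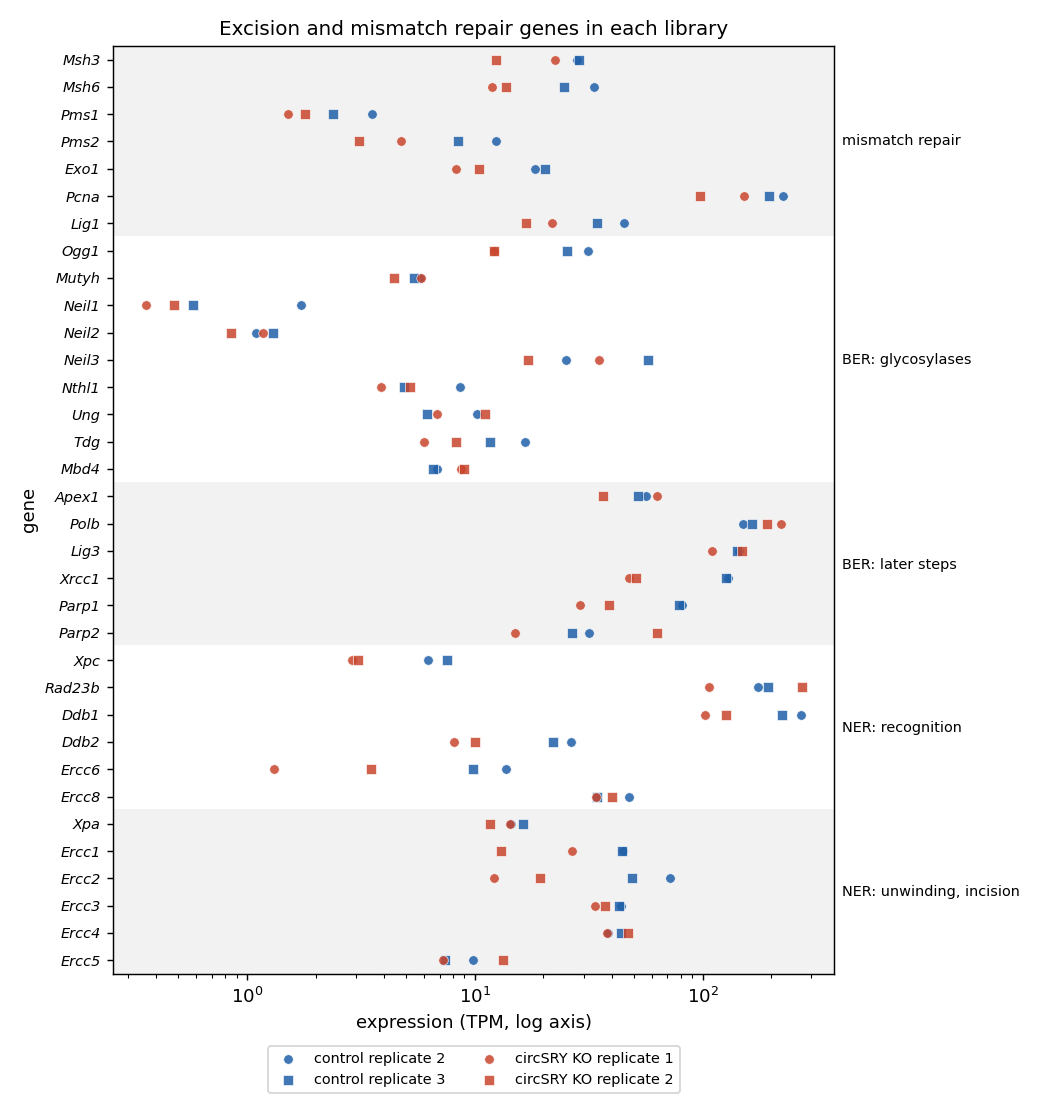
Level of each of the 34 repair genes in each library, in TPM on a log axis, grouped by role (blue, control; red, circSRY KO; 1 point per library, no average drawn). All 7 mismatch repair genes have both red points left of both blue points, whereas the points of most glycosylases overlap. Of all genes tested, 38.8% have both circSRY KO libraries below both control libraries.

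The mismatch repair genes were all lower in circSRY KO by direction, and fewer than that passed the test. All 7 had negative log2 fold changes and lay below the control range in TPM, the median log2 fold change was -0.93, and 3 of the 7 fell. Of all genes tested, 38.8% lay below the control range in TPM and 15.0% were called lower. Exo1 encodes the exonuclease that removes the mispaired strand and is also used in meiotic recombination. Its level was 18.33 and 20.3 TPM in control against 8.29 and 10.42 TPM in circSRY KO. Exo1 fell 2.6-fold (log2 fold change -1.38, SE 0.338, edgeR adjusted p = 0.00577), with no overlap between the groups. Lig1, the ligase that seals the nicks of replication and repair, was at 45.33 and 34.48 TPM in control against 21.88 and 16.78 TPM in circSRY KO. Lig1 fell 2.05-fold (log2 fold change -1.04, SE 0.309, edgeR adjusted p = 0.0166). Pms2, whose protein nicks the strand to be corrected, was the least abundant of the 3 that fell. It stood at 12.43 and 8.42 TPM in control against 4.72 and 3.09 TPM in circSRY KO (log2 fold change -1.12, SE 0.406, edgeR adjusted p = 0.0413).

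The mismatch recognition subunits were lower in both circSRY KO libraries without being called. Msh6, which recognises single mispairs, had 33.3 and 24.55 TPM in control against 11.84 and 13.73 TPM in circSRY KO. Its log2 fold change of -0.93 (SE 0.302, edgeR adjusted p = 0.0246) passed the false discovery rate but not the fold change. Msh3, which recognises small loops, had 28.2 and 28.75 TPM in control against 22.54 and 12.34 TPM in circSRY KO (log2 fold change -0.76, SE 0.31, edgeR adjusted p = 0.0642). The circSRY KO libraries differed from each other more than the control libraries for this gene. Pcna, the sliding clamp of replication and repair, was the most abundant gene of this group. It had 224.45 and 195.81 TPM in control against 152.01 and 97.03 TPM in circSRY KO (log2 fold change -0.47, SE 0.347, edgeR adjusted p = 0.303). Pcna was called lower when circSRY KO replicate 1 was left out (log2 fold change -1.03), and replicate 2 had the lower level of that pair. Pms1, a further MutL subunit, stayed between 1.52 and 3.54 TPM in the 4 libraries.

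**Figure D2:**
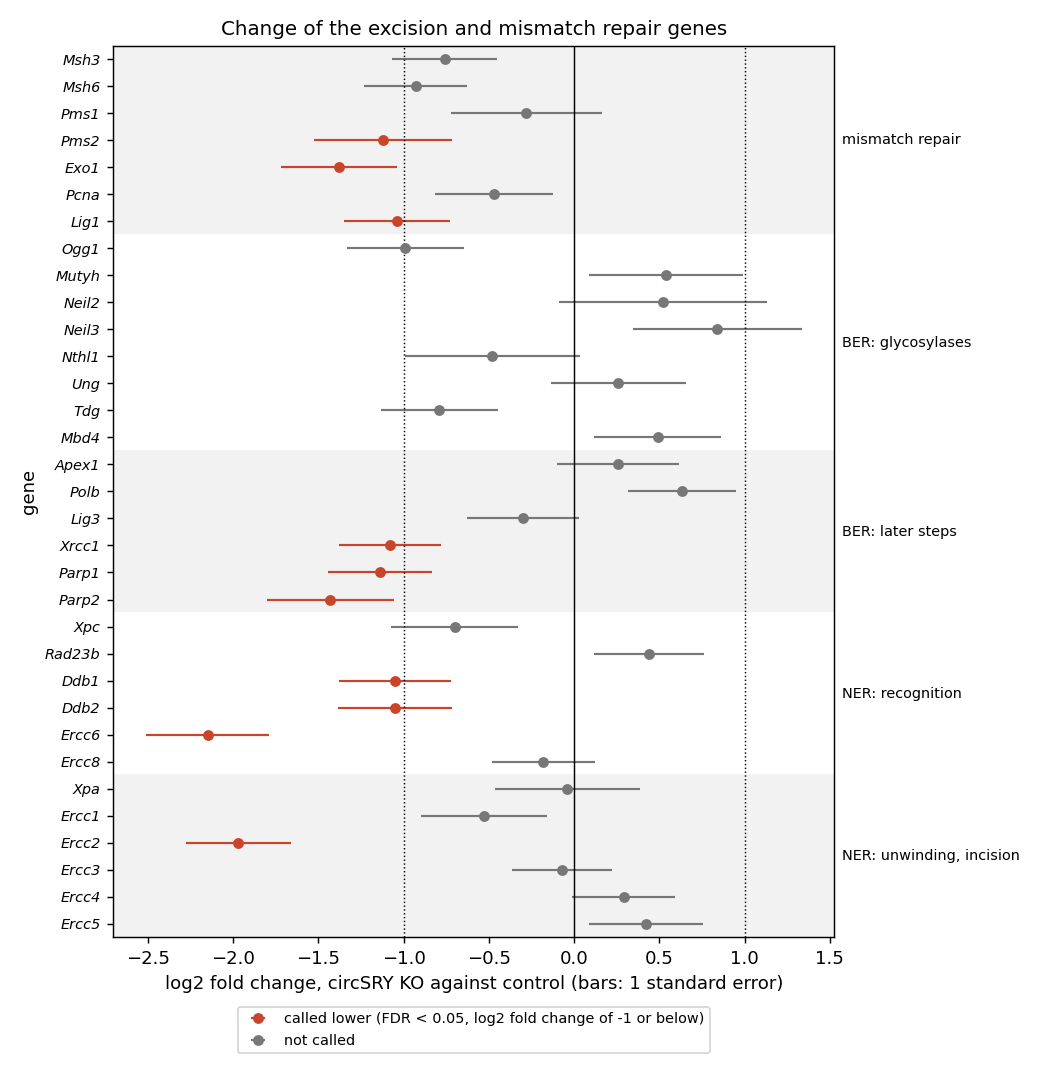
Log2 fold change (circSRY KO minus control) for the 33 tested repair genes from the edgeR fit, grouped by role (bars, 1 standard error; dotted lines, log2 fold changes of -1 and 1; red, called lower). The 10 called genes lie between -1.04 and -2.15, and 0 genes lie beyond 1.

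The glycosylases that start base excision repair showed no call. Their median log2 fold change was 0.38 over 8 tested genes, 5 of them positive. At an unadjusted p under 0.05, 2 were lower by edgeR, Ogg1 and Tdg. Ogg1, which removes oxidised guanine, was at 31.22 and 25.38 TPM in control against 12.1 and 12.11 TPM in circSRY KO. The groups did not overlap, and the log2 fold change of -0.99 (SE 0.343, edgeR adjusted p = 0.0332) missed the fold threshold by a small margin. Ogg1 was called lower under 7 of 13 other settings, including DESeq2, limma-voom and limma on TPM. Tdg, which removes thymine from G-T mispairs and takes part in DNA demethylation, was at 16.65 and 11.66 TPM in control against 5.98 and 8.3 TPM in circSRY KO. Its log2 fold change was -0.79 (SE 0.344, edgeR adjusted p = 0.0804). Neil3, a glycosylase for oxidised bases, behaved differently between libraries: 25.24 and 57.77 TPM in control against 35.05 and 17.11 TPM in circSRY KO, so its groups overlapped. Mbd4, another thymine glycosylase, was at 6.85 and 6.52 TPM in control against 8.69 and 8.99 TPM in circSRY KO (log2 fold change 0.49, SE 0.372, edgeR adjusted p = 0.31). The remaining glycosylases Mutyh, Neil1, Neil2, Nthl1 and Ung were low, between 0.36 and 11.13 TPM. Neil1 had 13 and 4 expected counts in control and 4 and 4 in circSRY KO and was not tested.

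Of the 6 genes of the later steps of base excision repair, Xrcc1, Parp1 and Parp2 were called lower and Apex1, Polb and Lig3 were not. The share called lower of all genes tested was 15.0%. For Parp2 the call did not hold in TPM, where its groups overlapped and the log2 ratio of the means was 0.42. Xrcc1, the scaffold that gathers these enzymes at a break, was at 128.9 and 126.12 TPM in control against 47.66 and 51.21 TPM in circSRY KO. The replicates lay close together in both groups, and Xrcc1 fell 2.11-fold (log2 fold change -1.08, SE 0.301, edgeR adjusted p = 0.012). Parp1, the main sensor of DNA breaks, had 80.97 and 78.63 TPM in control against 28.85 and 38.83 TPM in circSRY KO. Parp1 fell 2.2-fold (log2 fold change -1.14, SE 0.306, edgeR adjusted p = 0.0099). Lig3, the ligase bound by XRCC1, was at 143.99 and 142.06 TPM in control against 109.81 and 148.39 TPM in circSRY KO. In TPM, circSRY KO replicate 2 thus lay above both control libraries. In expected counts both circSRY KO libraries lay below them, at 2106 and 2695 against 2774 and 2926 in control (log2 fold change -0.30, SE 0.328, edgeR adjusted p = 0.495). The scaffold was thus called lower and its ligase partner was not, without a test of the difference between them.

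Polb and Apex1 were not called. Polb, the polymerase that fills single-base gaps and is needed in meiotic prophase, was at 150.3 and 164.59 TPM in control against 221.34 and 191.13 TPM in circSRY KO. Both circSRY KO libraries lay above the control libraries, but the log2 fold change of 0.63 (SE 0.317, edgeR adjusted p = 0.13) was not called. Apex1, the AP endonuclease, was at 56.12 and 51.96 TPM in control against 63.06 and 36.68 TPM in circSRY KO, so the groups overlapped (log2 fold change 0.26, SE 0.358, edgeR adjusted p = 0.594).

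The damage recognition genes of nucleotide excision repair included Ercc6, the gene with the largest fall of the set. Its protein, CSB, is an ATPase that binds stalled RNA polymerase and starts transcription-coupled repair. On GRCm39 the gene (ENSMUSG00000054051) spans chr14:32235451-32302947 with 21 exons. Ercc6 was at 13.69 and 9.79 TPM in control against 1.31 and 3.49 TPM in circSRY KO, on 413 and 306 against 66 and 101 expected counts. It fell 4.45-fold (log2 fold change -2.15, SE 0.362, edgeR adjusted p = 0.000566). Its partner Ercc8, which encodes CSA of the same branch, did not follow, with 47.37 and 34.52 TPM in control against 34.01 and 40.18 TPM in circSRY KO (log2 fold change -0.18, SE 0.304, edgeR adjusted p = 0.675). The groups overlapped for Ercc8.

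Both subunits of the UV-damaged DNA binding complex fell to a similar extent. Ddb1, the adaptor of the CUL4 ubiquitin ligases and the repair gene with the highest mean level in control, was at 270.72 and 222.09 TPM in control against 101.93 and 126.45 TPM in circSRY KO (log2 fold change -1.05, SE 0.329, edgeR adjusted p = 0.0218). Ddb2, the subunit that contacts damage, was at 26.39 and 21.93 TPM in control against 8.13 and 10.02 TPM in circSRY KO (log2 fold change -1.05, SE 0.334, edgeR adjusted p = 0.0231). The groups overlapped for neither. Rad23b, a partner of XPC, differed between the circSRY KO libraries in TPM but little in reads. It had 174.51 and 193.69 TPM in control against 106.46 and 271.55 TPM in replicates 1 and 2 of circSRY KO. The expected counts were 1832 and 2220 against 2763 and 2950 (log2 fold change 0.44, SE 0.321, edgeR adjusted p = 0.298). RSEM's effective transcript length was 2026 and 2020 bases in control against 3362 and 1907 bases in circSRY KO. Xpc, which recognises distortions across the genome, was low throughout at 2.88 to 7.51 TPM, with a log2 fold change of -0.70 (SE 0.372, edgeR adjusted p = 0.149).

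Among the genes that unwind and cut the damaged strand, Ercc2 fell and the other 5 were not called. Ercc2 encodes XPD, a helicase of TFIIH, which serves both repair and transcription. On GRCm39 the gene (ENSMUSG00000030400) spans chr7:19115931-19129623 with 23 exons. Its level was 72.16 and 49.12 TPM in control against 12.16 and 19.32 TPM in circSRY KO, on 865 and 743 against 211 and 216 expected counts. Ercc2 fell 3.92-fold (log2 fold change -1.97, SE 0.309, edgeR adjusted p = 0.000368), with the groups well apart. Ercc3, which encodes the other TFIIH helicase XPB, was at 43.8 and 43.07 TPM in control against 33.58 and 37.33 TPM in circSRY KO (log2 fold change -0.07, SE 0.294, edgeR adjusted p = 0.877). One helicase of the complex was thus called lower and the other was not, without a test of the difference between them.

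None of the incision genes was called, and the log2 fold changes of Ercc4 (0.29), Ercc5 (0.42) and Xpa (-0.04) were small. Ercc4, the XPF endonuclease, had 38.23 and 43.98 TPM in control against 38.16 and 46.93 TPM in circSRY KO. Its partner Ercc1 had 44.67 and 44.37 TPM in control against 26.76 and 12.97 TPM in circSRY KO, so the levels were lower in both circSRY KO libraries while the log2 fold change was -0.53 (SE 0.37, edgeR adjusted p = 0.269). Ercc1 was called lower when circSRY KO replicate 1 was left out (log2 fold change -1.10) and by limma on TPM. Ercc5, the XPG endonuclease, had 9.85 and 7.43 TPM in control against 7.24 and 13.24 TPM in circSRY KO. Xpa, the damage verification factor, had 14.37 and 16.21 TPM in control against 14.33 and 11.61 TPM in circSRY KO. The groups overlapped for Ercc4 and Ercc5.

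The promoters of the 2 genes with the largest falls shared the palindromic motif of the transcription factor NRF1, searched on both strands. RefSeq promoter windows from 250 bases before to 50 after the start were found for 28 of the 34 genes, 8 of them called lower. The motif was present in 2 of these 8, Ercc2 and Ercc6, in 4 of the 19 other tested genes (Ercc4, Lig3, Msh3 and Rad23b) and in 8.38% of windows of all tested genes. The 150 bases upstream of the start are printed for the 2 genes that fell most and, as a gene with the motif that was not called, for Ercc4. Capitals mark NRF1 and CCAAT matches, and in Ercc2 the NRF1 match and the CCAAT that follows share a base. Coordinates are from the RefSeq table on GRCm38.p6, an earlier build than that of the expression files. A match describes the letters only.
Ercc2, chr7:19381867-19382016, plus strand: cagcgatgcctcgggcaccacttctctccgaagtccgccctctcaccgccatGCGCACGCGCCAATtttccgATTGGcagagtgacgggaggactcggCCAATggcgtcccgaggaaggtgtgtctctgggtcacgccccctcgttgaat
Ercc6, chr14:32513371-32513520, plus strand: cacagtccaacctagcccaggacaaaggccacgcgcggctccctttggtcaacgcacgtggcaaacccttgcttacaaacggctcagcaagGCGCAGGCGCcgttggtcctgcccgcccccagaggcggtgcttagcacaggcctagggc
Ercc4, chr16:13109586-13109735, plus strand: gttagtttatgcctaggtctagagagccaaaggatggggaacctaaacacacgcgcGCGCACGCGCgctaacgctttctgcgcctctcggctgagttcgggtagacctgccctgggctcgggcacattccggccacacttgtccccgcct

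CCAAT was found in 3 of the 8 lower genes (Ercc2, Pms2 and Xrcc1), in 14 of the 19 others and in 37.5% of windows of all tested genes. The CRE letters TGACGTCA were in 0 of the 8, 1 of the 19 and 2.78% of windows of all tested genes. No searched motif was common to the genes that fell.

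The study also examined miR-138-5p, and the repair genes were searched for its seed match, CACCAGC, in annotated 3' UTRs. The mature miRNA from RefSeq is printed with its seed (bases 2 to 8) in capitals, and the 4 matches with the heptamer in capitals. A match was found in 3 of the 33 tested genes (9.09%), against 15.0% of the 14409 tested genes with an annotated 3' UTR. The genes were Exo1, with 2 matches, Ercc2, and Ogg1, which was not called. Ercc6, with the largest fall, had none. Of the 10 genes called lower, 2 had a match (20.0%). The median log2 fold change was -1.38 over the 3 genes with a match and -0.38 over the other tested repair genes. Over all tested genes with an annotated 3' UTR these medians were -0.11 and 0.01. A link between match and change was not tested. The matches were read from GRCm39 with GENCODE M39 annotation.
miR-138-5p: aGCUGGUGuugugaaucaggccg
Exo1, first match: tggaacttggcCACCAGCctaga
Exo1, second match: acaaaacaaaaCACCAGCtgtac
Ercc2: catgccctgccCACCAGCtcctc
Ogg1: ctggttcttacCACCAGCtgttg

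The count test and the length-scaled level disagreed for a few genes. RSEM divides counts by an effective transcript length that depends on the isoforms reads are assigned to, and this length shifted between libraries for some genes. For Parp2, a second break sensor of the PARP family, the expected counts were 216 and 142 in control and 64 and 74 in circSRY KO. These gave a log2 fold change of -1.43 (SE 0.372, edgeR adjusted p = 0.00824). Its TPM were 31.71 and 26.67 in control and 14.99 and 63.06 in circSRY KO, because the effective length was 1315 and 939 bases in control but 553 and 206 bases in circSRY KO. With an offset for this length its log2 fold change turned to 0.47, and limma on log2(TPM + 1) gave 0.09. Parp2 was therefore lower in reads but not in length-scaled level. Neil3 went the other way, with 31 and 63 expected counts in control against 130 and 49 in circSRY KO and effective lengths of 237 and 192 against 480 and 503 bases. Its log2 fold change was 0.84 (SE 0.494, edgeR adjusted p = 0.193) by count and -0.43 with the length offset. Without circSRY KO replicate 2 it was called higher (log2 fold change 1.34). In all, 7 of the 33 genes differed by over 0.5 in log2 between the count fold change and the ratio of mean TPM, against 10.2% of all genes tested. They were Ercc1, Mutyh, Neil2, Neil3, Parp2, Pms1 and Xpc.

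**Figure D3:**
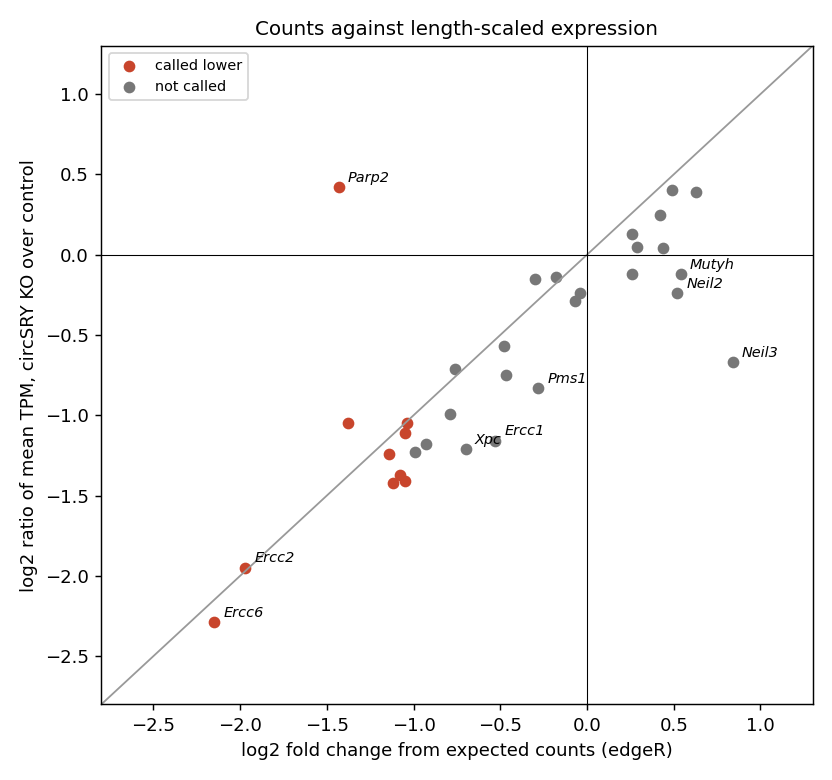
Log2 fold change from expected counts (horizontal) against the log2 ratio of mean TPM, circSRY KO over control (vertical), 1 point per tested repair gene (line, equal values; red, called lower). Parp2 lies at -1.43 by count and 0.42 by TPM, the only called gene on opposite sides of 0.

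Several repair genes share exons with genes on the opposite strand, and reads of such pairs cannot be told apart in these libraries. The canonical Ercc2 transcript shares 40.1% of its bases with Klc3, a kinesin light chain gene. Klc3 had 75 and 66 expected counts in control and 163 and 97 in circSRY KO, and was not called (log2 fold change 0.81). A second opposite-strand neighbour, the non-coding gene Gm26852, shares 18.1% and was called lower, on 34 and 16 expected counts in control and 0 and 5 in circSRY KO. Ddb2 shares 52.7% with Acp2, a lysosomal phosphatase gene that was not called (log2 fold change -0.47). The shared stretch was shorter for Parp2 and Ccnb1ip1 (13.7%), a meiotic crossover gene, and for Ddb1 and Tkfc (7.36%), and in both pairs the neighbour was called lower as well (log2 fold change -2.89 for Ccnb1ip1 and -1.81 for Tkfc). The same held for Lig1 and Zswim9 (6.73%, log2 fold change -2.48 for Zswim9). Among genes not called, Apex1 shares 70.8% with Pip4p1, Tdg 66.1% with Glt8d2 and Ogg1 36.5% with Camk1. How the authors' counting divided these reads was not tested.

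A second list of 44 genes from the same pathways, outside the 34, gave 12 lower (27.3%) and 3 higher with a median log2 fold change of -0.58, against 15.0% lower and 20.0% higher of all genes tested. This list was chosen with earlier results of these data known, so it is not an independent check. Of 16 other nucleotide excision repair genes 6 fell. Cul4a, the cullin that works with DDB1, was at 179.63 and 137.72 TPM in control against 33.66 and 38.46 TPM in circSRY KO (log2 fold change -2.14, SE 0.334, edgeR adjusted p = 0.000357). The TFIIH subunits Gtf2h4 (log2 fold change -1.61), Gtf2h2 (-1.48) and Gtf2h3 (-1.27) fell, as did Ccnh (-1.26), the cyclin of its kinase module. The TFIIH genes Gtf2h1 (log2 fold change -0.62), Gtf2h5 (-0.88), Cdk7 (-0.07) and Mnat1 (-0.11) were not called, nor was Ercc3. Ccnh and these 4 uncalled genes of the list are named after their values were seen. Cetn2, a centrin that binds XPC, was the only one called higher (log2 fold change 1.3), and it is named here after its value was seen. Of 12 other base excision and break repair genes 3 fell. Parg, which removes poly(ADP-ribose), was at 46.51 and 36.44 TPM in control against 8.35 and 12.4 TPM in circSRY KO (log2 fold change -1.77, SE 0.315, edgeR adjusted p = 0.000789). The uracil glycosylase gene Smug1 (log2 fold change -1.98) and the break repair factor Aplf (-1.25) also fell. Aptx, which releases stalled ligase products, rose from 42.8 and 50.26 TPM to 104.51 and 92.09 TPM (log2 fold change 1.17, SE 0.311, edgeR adjusted p = 0.00901). Of 16 gap-filling and single-stranded DNA binding genes 3 were called lower, a share of 18.8% that is near that of all genes. They were Pole4 (log2 fold change -1.48), Pold1 (-1.3) and Rpa2 (-1.01), while Pole2 rose (1.31).

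Ercc2 and Ercc6 were the repair genes whose call held most widely. Both were called lower under all 13 other settings with a value per gene, at log2 fold changes from -2.13 to -1.76 for Ercc2 and from -2.57 to -1.84 for Ercc6. Xrcc1 and Parp1 were called under 10 of the 13, Parp2 and Ddb2 under 9, and Ddb1, Exo1 and Lig1 under 8. Pms2 was called under 5. Of these 8 genes, Parp2 alone stayed called without control replicate 3, and none did without control replicate 2.

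**Figure D4:**
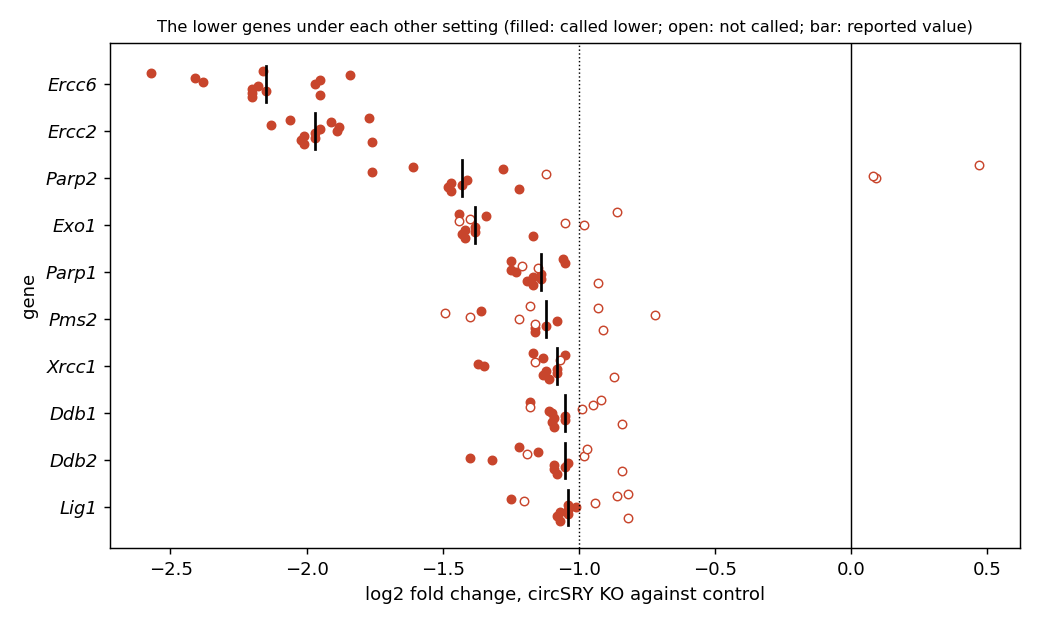
Log2 fold change of the 10 called repair genes under each of the 13 other settings (points; filled, called lower; open, not called; vertical bar, reported value; dotted line, -1). Every point of Ercc2 and Ercc6 is filled, and Parp2 has 3 points above 0.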

How the data were processed

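RNA-seq of sorted primary spermatocytes was analysed for 2 control and 2 circSRY KO mice. Per the submitters' processing notes, reads were aligned with STAR 2.7.0f and quantified with RSEM 1.3.2. The notes name GRCm39 and mm9. The annotation release was not given in the sources used here. Expected counts, as deposited, are unnormalized RSEM estimates per gene made by the authors. The deposited TPM and FPKM are the authors' values scaled for transcript length and library size. FPKM served only to work out effective transcript length. The authors' own comparison columns hold log2 fold changes, p-values and FDR from edgeR 3.28.1 and were not used, nor were 4 further columns of TPM in a separate sheet.

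After rounding, the expected counts went into edgeR 4.0.16 under R 4.3.3 (filterByExpr, TMM, quasi-likelihood, Benjamini-Hochberg over 17766 genes). Calls needed an FDR under 0.05 and a log2 change of 1 or more in either direction. The common dispersion was 0.0685. Chi-square per gene between replicates was 11.6 in control and 39.9 in circSRY KO, so no library was a repeat of another. Alternatives used DESeq2 1.42.0, limma 3.58.1, other scaling, no filter and each library left out, where a lone library is assumed to vary like the other group. Values per library are given for called genes and genes whose mean reached 10 TPM in either group, the rest by range, and up to 4 called genes of each further list by adjusted p. The genes and lists were chosen with earlier results of these data known. Promoters, miRNA and annotation are from RefSeq and GENCODE M39.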

Additional observations from a re-analysis of the deposited data

How the results depend on the processing

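The number of repair genes called lower was 4 with upper-quartile scaling and 5 with an offset for effective transcript length, an alternative chosen after seeing the data, and 2 to 12 when 1 library was left out. The number called higher was 0 to 1 over the latter, the 1 being Neil3 without circSRY KO replicate 2. The median log2 fold change was -0.27 with upper-quartile scaling, -0.77 with limma on log2(TPM + 0.1) and -0.88 to -0.44 with a library left out. Over all genes, 2219 and 2117 were called higher by limma on log2(TPM + 1) and log2(TPM + 0.1), against 3551, and leaving out a library gave 1232 to 4127 higher and 952 to 3368 lower. Upper-quartile scaling moved the median of all genes from 0.07 to 0.28 and the share of calls that were higher from 57.1% to 69.2%, and limma on TPM moved them to -0.13 and 43.9% or -0.16 and 43.6%. Of all genes tested, 11% were called lower with upper-quartile scaling and 13.8% with the length offset, against 15.0% in the reported fit. The cause of these shifts was not tested.

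Signs turned for 11 genes, none of them called under the setting that turned it. With upper-quartile scaling the log2 fold change was 0.03 for Ercc8, 0.18 for Xpa and 0.14 for Ercc3. With limma on log2(TPM + 1) and log2(TPM + 0.1) it was -0.11 and -0.13 for Mutyh, -0.13 and -0.23 for Neil2, -0.62 and -0.64 for Neil3, -0.16 and -0.17 for Apex1, 0.09 and 0.08 for Parp2, and -0.11 and -0.11 for Rad23b. With the length offset it was -0.03 for Neil2, -0.43 for Neil3, 0.03 for Lig3, 0.47 for Parp2 and 0.06 for Ercc8. With a library left out it ranged from -0.09 to 0.61 for Ung, -0.38 to 0.23 for Xpa and -0.40 to 0.70 for Apex1. Of the other values for single genes, 357 kept their direction and their side of the threshold, 34 lost a call and 14 gained one. No paired analysis was possible because the groups share only replicate number 2. With 2 mice a group, differences under the fold threshold were hard to resolve, and the circSRY KO libraries differed from each other more than the control libraries did.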
